A study of Mus musculus with 8 samples.

Results

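The 10 genes described here encode the core machinery that writes and reads methylation of lysine 9 on histone H3 (H3K9), the mark of heterochromatin. They are the methyltransferases Suv39h1, Suv39h2, Setdb1, Setdb2, Ehmt1 and Ehmt2, the SETDB1 corepressor Trim28, and the heterochromatin protein 1 (HP1) genes Cbx1, Cbx3 and Cbx5. They were chosen by gene symbol, all 10 were found among the 31723 genes of the deposited table, and all 10 were among the 14822 genes tested, which averaged 10 or more normalized counts.

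The RNA came from muscle stem cells, the resident progenitors that repair skeletal muscle and carry Pax7, which were taken from mouse hindlimbs by fluorescence-activated sorting and used fresh. The old group held 4 libraries from 20-month-old C57BL/6 mice of WT genotype, and the young group 4 libraries from 3-month-old C57BL/6 mice of WT genotype. The labels do not say whether a library came from 1 animal or from a pool, so p-values rest on the spread among these libraries, which may be technical. The title of the series concerns S-adenosylmethionine (SAM), the methyl donor that these enzymes use, and loss of heterochromatin with age, and the comparison asked here is how the RNA of the machinery differs between old and young cells.

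In mammals the SUV39 enzymes place the trimethyl mark at pericentromeric repeats, and HP1 proteins bind it through their chromodomain and recruit more SUV39 enzyme, which lets the mark spread. SETDB1 is brought by TRIM28 and KRAB zinc finger proteins to retroelements, which it silences. G9a (Ehmt2) and GLP (Ehmt1) work as a pair and place the mono- and dimethyl marks, largely in euchromatin. In muscle precursors, SUV39H1 and G9a are known as restraints on MyoD and on differentiation genes.

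Promoter windows of 4 of the genes are printed because Setdb1 was the single gene of the 10 whose old and young libraries did not overlap, and because Setdb2, Cbx3 and Cbx5 start close to a gene read in the opposite direction. Each window runs 5′ to 3′ from 250 bases before to 50 bases after a RefSeq start (GRCm38.p6). Capitals mark a CCAAT box (CCAAT), a GC box (GGGCGG) or an E2F-type match (TTTGGCGC or TTTCCCGC), searched on both strands, so that ATTGG and CCGCCC are matches on the other strand.
Setdb1 (chr3:95357153-95357452, minus strand): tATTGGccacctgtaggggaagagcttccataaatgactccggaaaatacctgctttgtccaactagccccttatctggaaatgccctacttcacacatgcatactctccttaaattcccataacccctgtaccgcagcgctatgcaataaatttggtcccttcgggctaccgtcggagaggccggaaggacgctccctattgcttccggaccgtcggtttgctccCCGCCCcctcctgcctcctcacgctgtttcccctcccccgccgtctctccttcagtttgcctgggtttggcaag
Setdb2 (chr14:59440831-59441130, minus strand): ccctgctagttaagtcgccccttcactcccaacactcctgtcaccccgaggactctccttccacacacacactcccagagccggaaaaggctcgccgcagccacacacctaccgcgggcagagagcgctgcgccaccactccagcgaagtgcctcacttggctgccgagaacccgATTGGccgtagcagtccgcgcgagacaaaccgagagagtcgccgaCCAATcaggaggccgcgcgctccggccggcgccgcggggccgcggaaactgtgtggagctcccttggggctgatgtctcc
Cbx3 (chr6:51470366-51470665, plus strand): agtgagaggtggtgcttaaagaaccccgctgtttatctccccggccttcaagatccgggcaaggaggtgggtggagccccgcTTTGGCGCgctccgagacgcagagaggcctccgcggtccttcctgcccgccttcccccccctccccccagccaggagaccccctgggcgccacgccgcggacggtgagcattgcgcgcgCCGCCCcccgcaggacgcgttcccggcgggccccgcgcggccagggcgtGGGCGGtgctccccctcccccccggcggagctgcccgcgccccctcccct
Cbx5 (chr15:103239803-103240102, minus strand): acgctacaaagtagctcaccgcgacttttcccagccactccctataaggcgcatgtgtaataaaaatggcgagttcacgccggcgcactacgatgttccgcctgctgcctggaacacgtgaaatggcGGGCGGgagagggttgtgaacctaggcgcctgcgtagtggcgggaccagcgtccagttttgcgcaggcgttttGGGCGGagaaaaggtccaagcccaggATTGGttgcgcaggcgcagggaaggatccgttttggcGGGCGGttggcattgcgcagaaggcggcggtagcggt

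The Setdb1 window held a CCAAT box far from the start and 1 GC box, with 15 CpG dinucleotides. The Setdb2 window held 2 CCAAT boxes, no GC box and 29 CpG. It also contains the start of Cab39l, read from the other strand 83 bases away. The Cbx3 window held the E2F-type match and GC boxes on both strands, with 34 CpG, and the Cbx5 window held 3 GC boxes, 1 CCAAT box and 29 CpG. Such matches are a description of the letters and not of binding. Across 21262 promoter windows of protein-coding genes, 38.2% held a CCAAT box, 46.2% a GC box and 2.02% an E2F-type match, and the median window had 13 CpG. The 10 genes have 14 windows in the RefSeq table, and the first window of each had between 15 and 34 CpG, above that median for all 10. Over all 14 windows the count ran from 8, in the second window of Cbx5 and below that median, to 40. A GC box was in 12 of the 14 windows, from 9 of the 10 genes (all but Setdb2). A CCAAT box was in 4 of the 14 windows, from 4 genes (Cbx5, Setdb1, Setdb2 and Suv39h1). The E2F-type match was in Cbx3 alone, and none of the 14 windows held the TATA box letters TATAAA, which were in 12.6% of all windows.

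None of the 10 genes passed the test between old and young cells. The test was limma on log2(normalized count + 1), with Benjamini-Hochberg adjustment over the 14822 genes and a threshold of 0.05, and it called 5.22% of all tested genes, 3.34% higher in old and 1.88% lower. None of the 10 had an unadjusted p under 0.05 either, against 20.8% of all tested genes, and edgeR and DESeq2 on recovered reads also gave 0 of 10 at the adjusted and at the unadjusted threshold. In 3 of the 22 alternatives 1 of the 10 had an unadjusted p under 0.05: Setdb1 under quantile normalization and without moderation of the spread, and Cbx5 without old library 1. The log2 fold change was below 0 for 7 genes and above 0 for 3, with a median of -0.048, beside 0.045 over all tested genes. The old and young libraries of 1 of the 10 genes, Setdb1, did not overlap, beside 13.4% of all tested genes (5.46% with old lower and 7.99% with old higher). Normalized counts are read counts that the authors divided by a size factor, and log2 fold changes are old over young, given ± SE. In RNA from a sorted population, fewer cells of a type and less RNA per cell cannot be told apart.

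**Figure D1:**
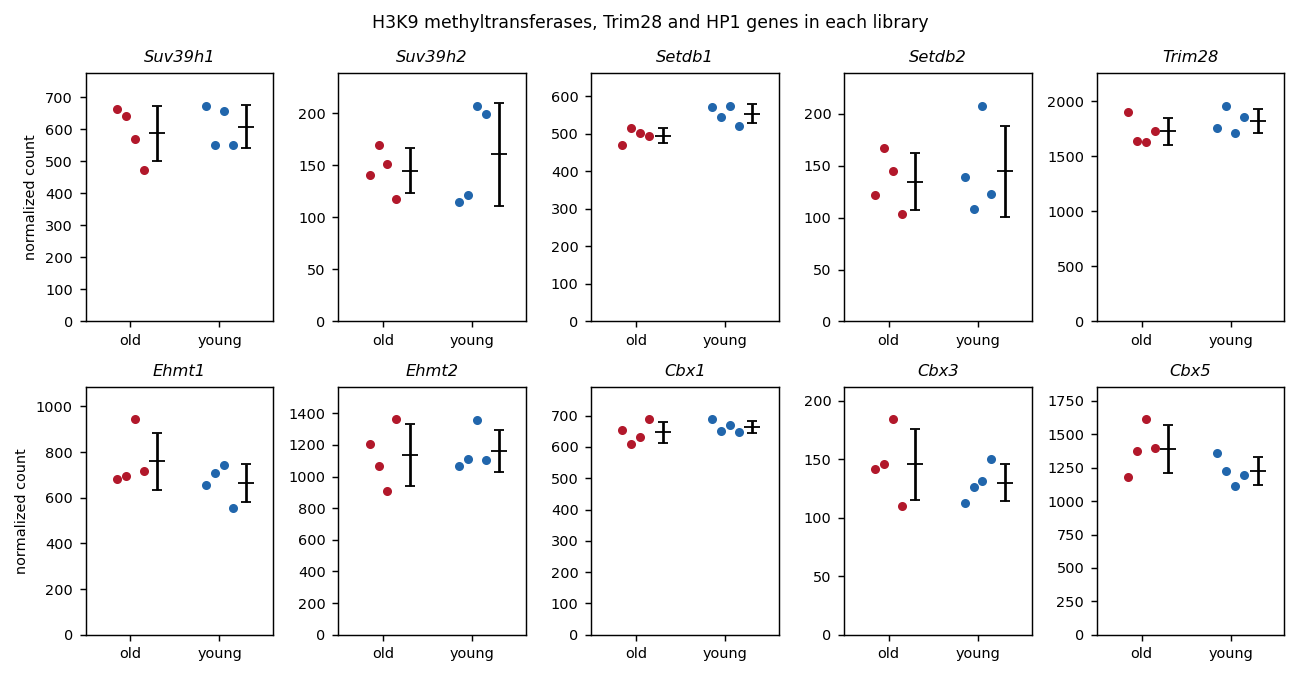
Normalized counts of the 10 genes in each library, with 1 panel per gene, old libraries in red and young in blue, and the mean ± SD of 4 libraries in black. Each y axis starts at 0. The ages overlap in every panel but that of Setdb1, where old libraries reach 516 and young libraries start at 522.

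The SUV39 enzymes place the trimethyl mark of constitutive heterochromatin. Suv39h1, the broadly expressed paralog, had 663, 642, 569 and 472 normalized counts in old libraries 1 to 4, against 673, 549, 656 and 551 in young libraries 1 to 4. The ages overlapped, with the lowest value in old library 4. The means were 586 ± 86.2 in old and 607 ± 66.5 in young (SD, n = 4 each), a log2 fold change of -0.056 ± 0.14 with a 95% interval from -0.36 to 0.25 (limma, adjusted p = 0.868). Suv39h2, known for its high expression in the germ line, had 141, 170.0, 151 and 118 normalized counts in old cells and 115, 122, 207 and 199 in young cells. The young libraries split into a low pair and a high pair that lay on either side of 3 of the 4 old values. Suv39h2 averaged 145 ± 21.7 in old and 161 ± 49.3 in young (SD, n = 4 each; log2 fold change -0.11 ± 0.24, limma adjusted p = 0.853), and its interval, from -0.63 to 0.42, was among the widest of the 10. The sign of these small changes turned with single libraries: the log2 fold change of Suv39h1 was 0.044 without old library 4, and that of Suv39h2 was 0.032 without young library 3 and 0.013 without young library 4.

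Setdb1, the methyltransferase that TRIM28 recruits, had 470.2, 516, 503 and 493 normalized counts in old libraries, against 573, 544, 576 and 522 in young libraries. Every old value was below every young one, though old library 2 and young library 4 were close. Its mean was 496 ± 19.5 in old and 554 ± 25.3 in young (SD, n = 4 each), a fold of 0.896 with a 95% interval from 0.772 to 1.04 (log2 fold change -0.16 ± 0.097, limma adjusted p = 0.394). The libraries of an age lay close together: the coefficient of variation was 3.94% in old and 4.58% in young, where counting error at the mean number of reads gives 3.92%. The residual SD of Setdb1 (0.062 on the log2 scale) stood at percentile 0.776 of all tested genes. Limma draws so small a spread towards that of other genes. With the gene's own spread alone, a setting chosen after seeing the data, the SE was 0.044 and the adjusted p 0.134, the lowest adjusted p of any of the 10 genes over the 22 alternatives.

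Setdb2, a less studied relative, was among the lowest of the 10 genes, with 122, 168, 145 and 104 normalized counts in old cells and 139, 108, 208 and 123 in young cells. The ages overlapped, and young library 3 was the highest. The means of Setdb2 were 135 ± 27.6 in old and 145 ± 44.1 in young (SD, n = 4 each; log2 fold change -0.082 ± 0.24, 95% interval -0.61 to 0.45, limma adjusted p = 0.894), and the log2 fold change was 0.107 without young library 3 and 0.034 without old library 4. Trim28, the scaffold that links KRAB zinc finger proteins to SETDB1 and HP1, had 1899, 1642, 1628 and 1732 normalized counts in old cells, against 1755, 1959, 1707 and 1856 in young cells. Old library 1 was above 3 of the 4 young libraries. Trim28 averaged 1725 ± 124 in old and 1819 ± 112 in young (SD, n = 4 each; log2 fold change -0.078 ± 0.087, 95% interval -0.27 to 0.12, limma adjusted p = 0.669).

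Ehmt1 and Ehmt2 encode the GLP and G9a subunits of the dimethylating complex. Ehmt1 had 681, 695, 946 and 717 normalized counts in old libraries and 655, 709, 744 and 554 in young libraries. Old library 3 stood well above the other old libraries, which lay within the young range. The means of Ehmt1 were 759.8 ± 125 in old and 665 ± 83.2 in young (SD, n = 4 each; log2 fold change 0.19 ± 0.14, 95% interval -0.12 to 0.49, limma adjusted p = 0.497), and the change was 0.077 without old library 3 and 0.10 without young library 4. Ehmt2 had 1207, 1066, 909 and 1364 normalized counts in old cells, against 1069.6, 1110.3, 1356 and 1101 in young cells. Here old library 3 was the lowest and young library 3 stood above the other young libraries. Ehmt2 averaged 1137 ± 194 in old and 1159 ± 132 in young (SD, n = 4 each; log2 fold change -0.038 ± 0.14, 95% interval -0.34 to 0.26, limma adjusted p = 0.913), and the change was 0.064 without old library 3 and 0.039 without young library 3.

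The libraries numbered 3 also had the highest summed levels of 6 endothelial markers, 35833 normalized counts in old library 3 (14282 to 16596 in the other old libraries) and 43094 in young library 3 (12759 to 23525 in the other young libraries). The ratio of Ehmt2 to Ehmt1 was 0.961 in old library 3 and between 1.53 and 1.90 in the other old libraries, against 1.56 to 1.99 in young libraries. Old library 3 was therefore low in that ratio while young library 3, at 1.82, was not. The part of endothelial RNA in these values was not tested.

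HP1 proteins read the mark. Cbx5 encodes HP1 alpha and Cbx1 HP1 beta, which concentrate at pericentromeric heterochromatin, and Cbx3 encodes HP1 gamma, which is also found in euchromatin and on gene bodies. Cbx1 had 653, 610.4, 633 and 688 normalized counts in old libraries, against 689, 649.6, 670.1 and 647 in young libraries. The ages overlapped within a narrow band, and the residual SD of Cbx1, 0.060 on the log2 scale, stood at percentile 0.681 of all tested genes. Cbx1 averaged 646 ± 32.9 in old and 664 ± 19.8 in young (SD, n = 4 each), a fold of 0.973 with a 95% interval from 0.845 to 1.12 (limma adjusted p = 0.857). Its coefficients of variation were 5.09% in old and 2.98% in young, around the 3.51% that counting gives.

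Cbx5 had 1179, 1374, 1615 and 1395 normalized counts in old libraries and 1363, 1222, 1114 and 1199 in young libraries. Of the old libraries 3 lay above all young ones, and old library 1 lay among the young. Its means were 1391 ± 179 in old and 1225 ± 103 in young (SD, n = 4 each), a fold of 1.13 with a 95% interval from 0.953 to 1.34 (log2 fold change 0.18 ± 0.11, limma adjusted p = 0.410). The log2 fold change of Cbx5 was 0.10 without old library 3 and 0.059 when young library 3 was left out as well. Cbx3 was the lowest HP1 gene, with 142, 146, 185 and 110.2 normalized counts in old cells, against 113, 126, 131 and 150.4 in young cells. The old libraries enclosed the young range, and Cbx3 averaged 146 ± 30.5 in old and 130.2 ± 15.5 in young (SD, n = 4 each; log2 fold change 0.15 ± 0.20, 95% interval -0.29 to 0.58, limma adjusted p = 0.733). The log2 fold change of Cbx3 was 0.024 without old library 3, 0.27 when old library 4 was left out instead and 0.080 when young library 1 was, and under quantile normalization it was -0.059.

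Cbx3 is also the gene of the 10 whose count is least certain. In the GENCODE vM21 transcripts, 28.9% of the 50-base words of its longest transcript also occur in transcripts of 16 other genes, mainly Cbx3 pseudogenes, so reads from there may be shared or dropped. The one Cbx3 pseudogene in the table, Cbx3-ps5, was listed at 0 in every library. Suv39h1 shared 20.5% of its words with the antisense gene Gm14820, Setdb1 9.37% with 3 genes including Cers2, Suv39h2 4.28% with Dclre1c and Cbx5 0.0228%, and the other 5 genes shared none. The labels do not state whether the libraries kept the strand, so reads of overlapping genes on opposite strands may not be separable. Cers2, a ceramide synthase gene that overlaps Setdb1, had 4379 ± 284 normalized counts in old and 4438 ± 50.9 in young (SD, n = 4 each; limma adjusted p = 0.911). Dclre1c, a DNA repair nuclease gene that overlaps Suv39h2, had 566 ± 60.7 in old and 519 ± 74.3 in young (SD, n = 4 each; limma adjusted p = 0.636).

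**Figure D2:**
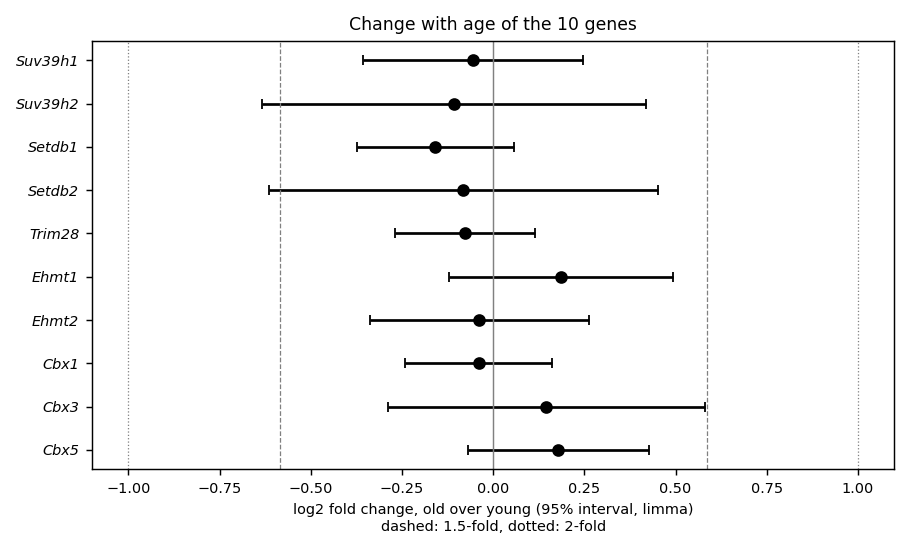
Log2 fold change of each gene, old over young (x axis), with its 95% interval from limma, dashed lines at a 1.5-fold and dotted lines at a 2-fold change in either direction. Every interval includes 0 and lies inside the dotted lines, and only those of Suv39h2 and Setdb2 reach past a dashed line.

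The intervals bound how large a difference these libraries leave room for. For 8 of the 10 genes the 95% interval excluded a 1.5-fold change in either direction, the exceptions being Suv39h2 and Setdb2, and for all 10 it excluded a 2-fold change. Over the 10 genes the recovered reads per library ran from 114 (Setdb2) to 2923 (Trim28). Counting error at the mean number of reads gives a coefficient of variation of 7.29% for Suv39h2 and 7.58% for Setdb2, where the libraries varied by 14.9% in old and 30.7% in young for Suv39h2 and by 20.5% in old and 30.5% in young for Setdb2. Cbx3, with a counting error of 7.75%, had an interval inside the 1.5-fold limits. The spread within an age, as residual SD on the log2 scale, was below the median of all tested genes (0.246) for 8 of the 10, whose own median was 0.198. The 2 above it were Suv39h2 and Setdb2.

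Scaled by exon length, the genes fell into steps. The mean over all 8 libraries, in normalized counts per kb of exon, was 546 for Trim28, 279 for Ehmt2, 269.6 for Cbx1, 146 for Cbx5, 120.1 for Suv39h1, 119 for Ehmt1, 113 for Setdb1, 70.3 for Cbx3, 35.7 for Setdb2 and 35.3 for Suv39h2. Single libraries of Trim28 (502 to 604 per kb) did not overlap those of Ehmt2 (221 to 332). Ehmt2 and Cbx1 overlapped each other, and Cbx1 (251 to 284) lay apart from Cbx5 (124 to 179.7). Cbx5, Suv39h1, Ehmt1 and Setdb1 followed closely, and the libraries of each overlapped those of the next, although the lowest library of Cbx5 (123.99) lay just above the highest of Setdb1 (123.5). Cbx3 (56.2 to 94.1) lay below Setdb1 (100.9 to 124) and just above Setdb2 (26.6 to 53.2), which overlapped Suv39h2. With the length of the longest transcript in place of all exons, Cbx1 came before Ehmt2 and Suv39h1 before Cbx5, and the other 6 genes kept their places.

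**Figure D3:**
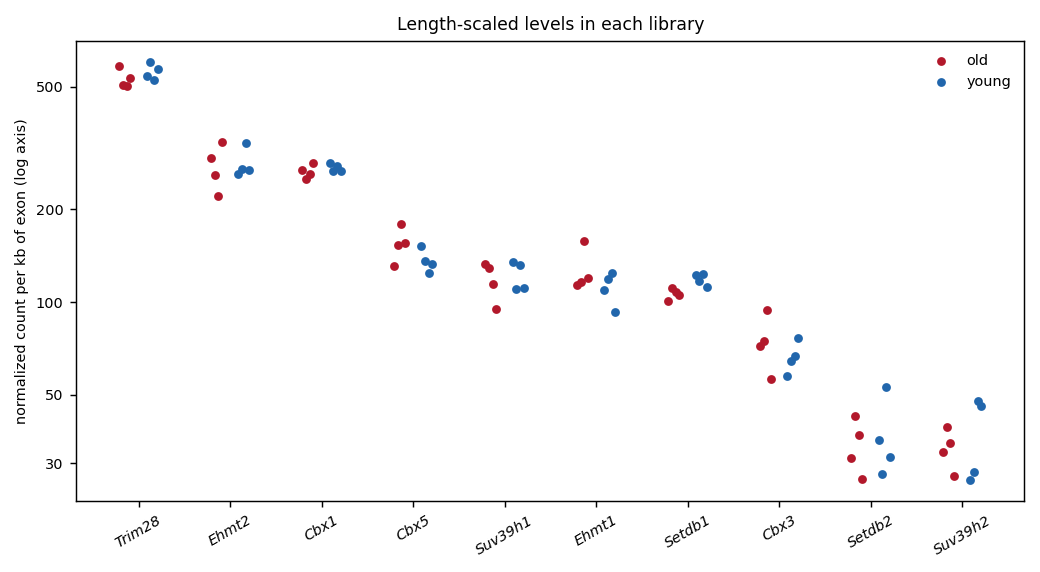
Normalized counts per kb of exon (y axis, log scale) in each library for the 10 genes, ordered by their mean over the 8 libraries, with old in red to the left of young in blue for each gene. Trim28 is the highest in every library, from 502 to 604, and Setdb2 and Suv39h2 are the lowest, from 26.5 to 53.2.

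Within families, the same paralog supplied the largest share of the length-scaled RNA in every library. Suv39h1 made up 77.8 ± 1.77% of the SUV39 pair in old and 76.8 ± 5.91% in young, and Setdb1 75.7 ± 3.30% of the SETDB pair in old and 76.6 ± 4.69% in young (SD, n = 4 each). Ehmt2 made up 68.2 ± 6.86% of the G9a and GLP pair in old and 71.7 ± 2.19% in young. Of the 3 HP1 genes, Cbx1 held 53.8 ± 4.03% in old and 57.4 ± 1.32% in young, Cbx5 31.2 ± 2.46% in old and 28.6 ± 1.77% in young, and Cbx3 14.97 ± 2.61% in old and 14.0 ± 1.82% in young. The share of Cbx3 carries the uncertainty of its count given above. Before scaling by length, Cbx5 had more normalized counts than Cbx1 in every library, so the lead of Cbx1 rests on the exon lengths used. The ratio of Cbx5 to Cbx1 normalized counts was 1.80, 2.25, 2.55 and 2.03 in old libraries and 1.98, 1.88, 1.66 and 1.85 in young libraries. Of the old libraries 3 had a higher ratio than any young library, and old library 1 did not, so the ages overlapped.

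The opposite-strand neighbours of the promoters were read in the same fit. Cab39l, an adaptor of the LKB1 kinase complex and the neighbour of Setdb2, had 1026 ± 110.1 normalized counts in old and 938 ± 151 in young (SD, n = 4 each; log2 fold change 0.14 ± 0.13, limma adjusted p = 0.605). Hnrnpa1 and Hnrnpa2b1 encode splicing proteins and start 545 bases from Cbx5 and 722 bases from Cbx3. Hnrnpa1 averaged 1215 ± 213 in old and 1467 ± 145 in young (SD, n = 4 each; log2 fold change -0.28 ± 0.13, limma adjusted p = 0.255), and thus had the opposite sign to Cbx5. Hnrnpa2b1 averaged 31176 ± 5319.8 in old and 27932 ± 2734 in young (SD, n = 4 each; log2 fold change 0.15 ± 0.13, limma adjusted p = 0.574). None of the 3 neighbours passed the test.

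Pairs of paralogs or partners were correlated over the 8 libraries on the log2 scale, 6 pairs in all, with exact permutation p-values adjusted over the 6. Cbx1 and Cbx3 ran against each other (Pearson r = -0.763, exact permutation p = 0.0269, adjusted p = 0.161; Spearman rho = -0.833, adjusted p = 0.0923), so the relation missed the threshold after adjustment. Without old library 2 and young library 1, the farthest in Cbx1, r was -0.881, and with the mean of each age subtracted it was -0.733. All of this plays out within the narrow range of Cbx1. Setdb1 and Trim28 were not related over all libraries (r = -0.0677, exact permutation p = 0.868). With the mean of each age subtracted, r was -0.8286 (permutation p = 0.0126, not adjusted). That p is not exact, because the subtracted values were exchanged across ages. Without old library 1 and young library 3, and with no age mean subtracted, r was 0.451, against -0.0677 over all libraries. The sign without subtraction thus rests on those libraries. Leaving them out was not tried on the subtracted values. Ehmt1 and Ehmt2 gave r = -0.301 (exact permutation p = 0.501) and 0.712 without old library 3 and young library 4. Suv39h1 with Suv39h2 (r = 0.251), Cbx1 with Cbx5 (r = -0.204) and Cbx3 with Cbx5 (r = 0.317, and -0.242 without old libraries 3 and 4) did not pass the exact permutation test before or after adjustment.

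For each gene, the genes with the most similar profile over the 8 libraries were sought by Pearson r among 11413 genes that averaged 50 or more normalized counts. The best match of each is the highest of 11413 values over 8 points, and is given as a description. Setdb1 was most like Optn, an autophagy receptor gene (r = 0.953), and Arfgef2 (r = 0.941), and Trim28 most like Tafa5 (r = 0.936). Ehmt1 was most like Nsf, the membrane fusion ATPase gene (r = 0.967), and Clec1a (r = 0.944), and Ehmt2 most like Asb6 (r = 0.951). Cbx1 followed Rpap3 (r = 0.965), Cbx5 followed Nbea (r = 0.958) and Cbx3 followed Ppp4r4 (r = 0.933). Suv39h1 followed Frmd5 (r = 0.929), Suv39h2 followed Zfp507 (r = 0.961) and Setdb2 followed Ctnnb1, the beta-catenin gene (r = 0.947). None of the 10 genes had another of the 10 among its closest 2.

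Around the 10 genes, none of the other listed writers and partners of the mark passed the test either. The list of SETDB1, TRIM28 and HUSH cofactors includes, among others, proteins that stabilise SETDB1 or spread its mark. Of its 14 tested genes 0 were called (median log2 fold change -0.059), beside 5.22% of all tested genes. Tasor, a HUSH subunit, had 1315, 1507, 1334 and 1356 normalized counts in old cells, against 1249, 1125, 1136 and 1213 in young cells. Its libraries did not overlap by age, with old higher, as for 7.99% of all tested genes, and it did not pass (log2 fold change 0.22 ± 0.086, limma adjusted p = 0.171). Its paralog Tasor2 had a change of -0.26 ± 0.11 (limma adjusted p = 0.196), and Atf7ip, which protects SETDB1 from degradation, one of -0.29 ± 0.13 (limma adjusted p = 0.233). Zfp57, a KRAB zinc finger gene of imprinted loci, had the lowest value of the list, -1.27 ± 0.59 (limma adjusted p = 0.253), on means of 10.2 ± 7.85 in old and 24.7 ± 11.6 in young normalized counts (SD, n = 4 each), and is named after its value was seen. Atf7ip2 was below the filter.

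The lists that follow are also read beside the 5.22% of all tested genes called. The PRDM-family list (Prdm2, Mecom and Prdm16) had 0 of 3 called, with log2 fold changes of 0.13, 0.58 and 0.45. Mecom had 481, 664, 1418 and 727 normalized counts in old cells and 375, 540.4, 1009 and 323 in young cells, and was highest in the library numbered 3 of each age, as the endothelial marker sum was; the part of endothelial RNA was not tested. Of the G9a and GLP partners 0 of 6 were called (median 0.051), of the HP1 partners and heterochromatin chaperones 0 of 14 (median 0.086), and of the H4K20 methyltransferases, which write another heterochromatin mark, 0 of 3 (median -0.067). Kmt5b, which places the dimethyl mark on H4K20, had the lowest adjusted p of that last list (log2 fold change -0.28 ± 0.10, limma adjusted p = 0.155).

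H3K9 demethylases remove the mark. Of 10 tested H3K9 demethylase genes, 3 were called lower in old cells and 0 higher, and 5 had old libraries wholly below young ones. Of all tested genes, 1.88% were called lower and 5.46% had old libraries wholly below young ones. The log2 fold change was below 0 for 8 of the 10 demethylase genes and above 0 for 2. The list had a median log2 fold change of -0.27 beside 0.045 over all tested genes. The count of 3 was 1 without the filter and under quantile normalization and 0 without the trend, without moderation of the spread and with a marker covariate given further on. Kdm7a, a demethylase of dimethyl H3K9 and H3K27, had 1639, 1804, 1705 and 1191 normalized counts in old cells, against 2393, 2428, 2172 and 2840.1 in young cells. It fell by 0.64 ± 0.14 on the log2 scale (limma adjusted p = 0.0267). Kdm4b, which removes the trimethyl mark, had 1271, 1536, 1236 and 1211 normalized counts in old and 1724, 1768, 1627 and 1828 in young. It fell by 0.41 ± 0.097 (limma adjusted p = 0.0404). Jmjd1c, a relative of the dimethyl demethylases Kdm3a and Kdm3b, had 9047, 9300.4, 10635 and 10043 normalized counts in old and 13774, 11972, 11905 and 12331 in young, and fell by 0.36 ± 0.086 (limma adjusted p = 0.0424). Kdm1a (-0.32 ± 0.11, limma adjusted p = 0.109) and Kdm3a (-0.21 ± 0.084, limma adjusted p = 0.191) did not overlap by age and did not pass. These calls were near the threshold and went with single libraries.

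Kdm7a lost its call without old library 1 (limma adjusted p = 0.0621), young library 1 (0.0669), young library 2 (0.0549) or young library 4 (0.0762). Kdm4b lost it without old library 1 (limma adjusted p = 0.102), old library 3 (0.0838), old library 4 (0.111), young library 1 (0.101), young library 2 (0.0803) or young library 4 (0.110). Jmjd1c lost it without old library 1 (limma adjusted p = 0.114), old library 2 (0.102), old library 4 (0.0828), young library 1 (0.124), young library 2 (0.0658) or young library 4 (0.0985). The sign held in each of these fits: over single libraries left out, the log2 fold change lay between -0.71 and -0.51 for Kdm7a, between -0.49 and -0.37 for Kdm4b and between -0.40 and -0.31 for Jmjd1c. Over all tested genes, the share called ran from 2.45% to 2.83% when old library 1, 2 or 4 or young library 1 or 4 was left out, but it was 4.88% without old library 3, 4.33% without young library 2 and 5.66% without young library 3.

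The Polycomb members of the Cbx family read H3K27 methylation and not H3K9. Of 5 tested, 1 was called higher in old cells (3.34% of all tested genes were), and this was Cbx7. It had 1512, 2091, 1758 and 1820.0 normalized counts in old cells, against 1300.2, 1219.5, 1291 and 1141 in young cells. Its old libraries were wholly above its young ones (log2 fold change 0.53 ± 0.11, limma adjusted p = 0.0227). The call was lost without old library 2 (limma adjusted p = 0.0572), old library 4 (0.0646), young library 1 (0.0510) or young library 4 (0.0673), while its log2 fold change stayed between 0.45 and 0.61 with each library left out. The HP1 gene nearest to it in direction was Cbx5, at 0.18 ± 0.11, which did not pass.

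**Figure D4:**
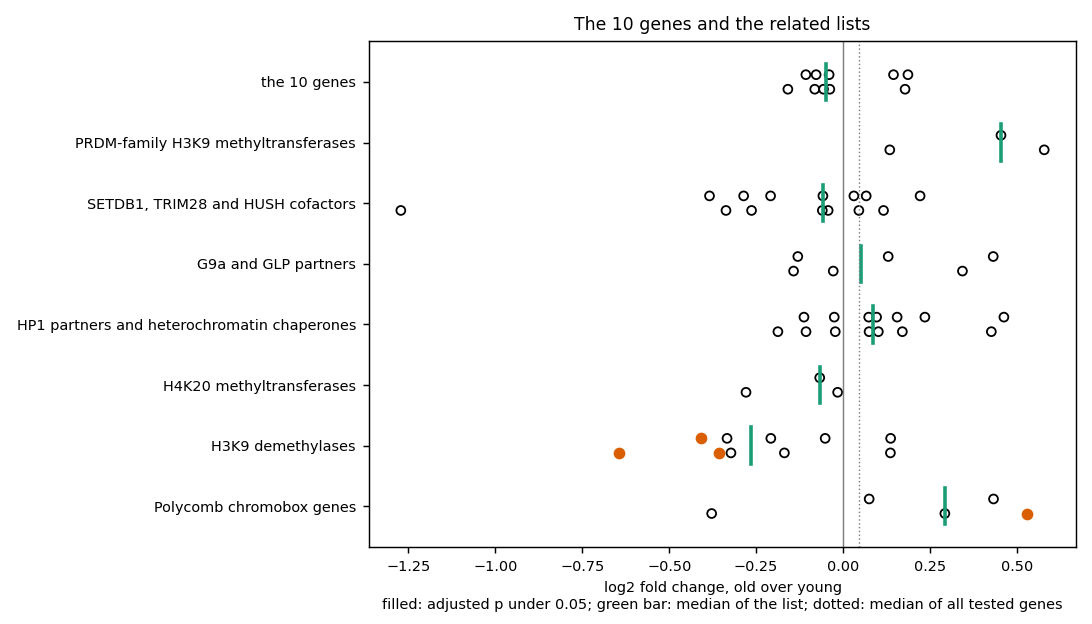
Log2 fold change, old over young (x axis), of the 10 genes and of each tested gene of 7 related lists (rows), with filled orange points for an adjusted p under 0.05, a green bar at each list's median and a dotted line at the median of all tested genes (0.045). No point of the 10 genes is filled, and filled points stand in the H3K9 demethylase row (3, all below 0) and the Polycomb chromobox row (1, above 0).

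Recovered reads per library ran from 19.04 to 34.68 M. All 10 muscle stem cell markers were detected, with summed levels of 155520 to 187931 normalized counts in old and 152358 to 186880 in young. Of the 10, 2 were called lower in old cells, Itga7 and Calcr (1.88% of all tested genes were). Markers of fibro-adipogenic progenitors, the stromal cells of muscle, summed to 110116 to 275049 in old and 83656 to 150646 in young. Of these 8, 2 were called higher, Dcn and Lum (3.34% of all tested genes were). The list did not move as one: Col3a1 had a log2 fold change of -0.59 and Dpt of -0.23, neither past the test, and Gsn and Dcn made up most of the sum in old cells. Tenocyte markers summed to 5169.98 to 60161 in old and 1574 to 4934 in young, with 2 of 3 called higher, and macrophage and leukocyte markers to 1181 to 4319 in old and 832 to 2159 in young, with 0 of 6 called. Myofibre markers summed to 21943 in old library 4 and to 5102 to 8729 in the other old libraries, against 7217 to 9608 in young, with 0 of 4 called. Old library 4 also had the highest macrophage and leukocyte sum. Leaving it out turned the sign of Suv39h1 and Setdb2, and the part of myofibre or macrophage RNA in this was not tested. No marker of these lists was at 0. With the mean log2 level of the fibro-adipogenic markers as a covariate, a setting chosen after seeing the data, 0.466% of all tested genes and 0 of the 10 genes were called. The log2 fold change was then -0.57 for Kdm7a (limma adjusted p = 0.284), -0.50 for Kdm4b (0.180), -0.31 for Jmjd1c (0.355) and 0.43 for Cbx7 (0.286), each with the sign it had without the covariate and moved by less than 1.5 times.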

How the data were processed

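RNA from sorted muscle stem cells was made into libraries from amplified cDNA with a Nextera XT kit, per the labels' protocols. The submitters' processing notes list STAR, DESeq2, featureCounts, Subread 1.5.1 and Trim Galore 0.4.2, and the builds GRCm39 and mm10 without their roles. The read length, the strand and the number of animals per library are not given in the sources used here. The table the authors deposited holds a signal per gene, a read count scaled by a library size factor (a normalized count), as the values show: when each column was divided by its smallest step, at least 99.97% of the nonzero values came out whole to within 0.01 reads. The total of recovered reads measures depth as assigned to genes.

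Limma 3.58.1 under R 4.3.3 gave the main test, with an intensity trend, on log2(normalized count + 1), age as the only term, two-sided, over 14822 genes with a mean of at least 10. A fold change on this scale understates the change of low genes. EdgeR 4.0.16 and DESeq2 1.42.0 were run on the recovered reads as alternatives, and DESeq2 called 9.24% of all genes. The test was also tried on simulated data. Exon lengths, gene overlaps and shared 50-base words came from GENCODE vM21 (GRCm38), and promoters from RefSeq (GRCm38.p6), all matched by symbol.

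The members, the related lists and the markers were chosen with earlier results of these data known. Named genes were the 10 members and, of each related list, the called genes and the 3 with the smallest p, and for each member the best 2 matches in profile of each member; Kdm1a, Kdm3a and Zfp57 were named after their values were seen. Alternatives were other pseudocounts (0.5 and 8), filters and scalings, a fit without the trend, the replicate number as a block and leaving out libraries. Added after the data were seen were robust and unmoderated spreads and the marker covariate. The main fit did not pair libraries by replicate number, and whether a number marks a shared batch was not tested.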

Additional observations from a re-analysis of the deposited data

Results flagged for a closer look

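Over 62 groups of 4 libraries (31 genes in 2 ages), 3 held a library that stood apart from the other 3 of its age by Dixon's criterion, where chance gives about 1 in 20 groups. Ehmt1 had 945.6 normalized counts in old library 3, while the other old libraries lay between 681 and 717. Ehmt2 had 1356.4 normalized counts in young library 3, while the other young libraries lay between 1069.6 and 1110.3. Prdm16 had 734.1 normalized counts in old library 3, while the other old libraries lay between 333 and 393. Old library 3 and young library 3 also had the highest summed endothelial markers of their ages, 35833 and 43094 normalized counts, and the part of that in these values was not tested.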

How the results depend on the processing

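None of the 10 genes was called in any of the 22 alternatives, and edgeR, DESeq2, robust eBayes, equal totals, both other pseudocounts and a minimum mean of 50 left the sign of each gene as it was. Signs turned for small changes. With the fibro-adipogenic marker covariate the log2 fold change was 0.014 for Suv39h1, 0.20 for Suv39h2 and 0.17 for Setdb2. Without old library 3 and young library 3 it was 0.0079 for Suv39h2, 0.064 for Setdb2 and 0.14 for Ehmt2, and under quantile normalization it was -0.059 for Cbx3. Leaving out each library in turn gave log2 fold changes from -0.12 to 0.044 for Suv39h1, from -0.25 to 0.032 for Suv39h2, from -0.20 to 0.11 for Setdb2, from -0.13 to 0.064 for Ehmt2, from -0.19 to -0.13 for Setdb1, from -0.12 to -0.041 for Trim28, from 0.077 to 0.24 for Ehmt1, from -0.071 to -0.013 for Cbx1, from 0.024 to 0.27 for Cbx3, from 0.10 to 0.25 for Cbx5, from -0.23 to 0.055 for Kmt5c and from -0.13 to 0.088 for Kmt5a. The count of H3K9 demethylases called lower (3) was 1 without the filter, under quantile normalization and with the replicate block, and 0 without the trend, without moderation of the spread and with the covariate. It ranged from 0 to 3 with libraries left out in turn. The count of Polycomb chromobox genes called higher (1) was 0 without the trend, without moderation and with the covariate, and 0 to 1 with libraries left out. Over the 22 alternatives the call was lost in 7 for Kdm7a (adjusted p 0.00118 to 0.284), 13 for Kdm4b (0.00691 to 0.180), 12 for Jmjd1c (0.00340 to 0.355) and 7 for Cbx7 (0.00255 to 0.286). Of all tested genes, 495 were called higher in old and 278 lower. These counts were 268 and 134 without the trend, 114 and 92 without moderation, 46 and 23 with the covariate and 768 and 601 with DESeq2, and ranged from 213 to 523 and from 117 to 316 with libraries left out in turn. Correlations turned or strengthened as follows: Ehmt1 with Ehmt2 0.712, Setdb1 with Trim28 0.451, Cbx3 with Cbx5 -0.242 and Cbx1 with Cbx3 -0.881 without the 2 farthest libraries, and Setdb1 with Trim28 -0.8286 and Cbx1 with Cbx3 -0.733 with age means subtracted. The cause was not tested. The main fit did not pair libraries by replicate number. With the mean of each age subtracted, old and young libraries of the same number correlated at 0.188, 0.0723, 0.304 and -0.0416 for numbers 1 to 4. Old libraries 1 to 3 correlated best with the young library of their own number, while old library 4 correlated best with young library 2. Whether libraries of the same number share a batch was not tested. The replicate block gave 559 genes higher and 252 lower and changed no call among the 10 genes. Setdb2, Suv39h2 and Cbx3 had 114 to 295 recovered reads per library, where counting error gives a coefficient of variation of 7.29% to 7.75%, less than the 11.9% to 30.7% seen within an age.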
